A study of Mus musculus with 71 samples.

Results

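C3H/10T1/2 cells are multipotent fibroblast-like mouse cells that form adipocytes under the right culture conditions. The RNA of such adipocytes that had received only the vehicle DMSO was followed over the earliest 4 times of the study, and every later time was compared with 1 hr. The members were chosen by sample title as the C3H10T1/2 arrays with DMSO for 1, 2, 4 or 7 h, which gave 12 of the 71 arrays in all, with 3 arrays at each time. The cells had been differentiated for 6 days with 10 µM rosiglitazone (RSG) and 1 µM insulin, then kept for 24 hrs in DMEM/F12 with bovine serum albumin (1%) free of essential fatty acids to wash out the drug, and given DMSO in that medium. All 12 arrays therefore share earlier exposure to RSG and its removal, and none received RSG again. For comparison, 11 arrays of the 3T3-L1 line, a mouse preadipocyte line, at the same times with DMSO were used. That line had received 0.1 µM RSG, 0.8 µM insulin, isobutylmethylxanthine and dexamethasone for 2 days, then insulin and then plain medium, 7 days in all, before an identical 24 hr wash-out. Each replicate pooled 2 wells of cells, and the methods state that replicates came from 3 separate batches of cells. No culture before DMSO and none without DMSO was analysed here, so time in fresh medium and DMSO cannot be told apart.

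Immediate early genes encode mostly transcription factors and feedback regulators whose mRNAs appear within minutes of a stimulus, without new protein synthesis, and are cleared quickly. Adipocytes also adjust their mRNA over hours to insulin, oxygen, sterols and fatty acids, through regulators such as SREBP for lipid synthesis, HIF for glycolysis and the FoxO factors for fasting genes. PPARγ, the receptor for RSG, and the C/EBP factors hold the adipocyte state.

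The values were MAS 5.0 signals of Affymetrix 430A arrays on a linear scale, and a signal at or above the presence level, which the methods set from negative controls, counted as present. Between 62.1% and 67.7% of probe sets were present on an array, and the median signal lay between 38.2 and 46.9. Arrays of the same time correlated at 0.957 to 0.973, and arrays of different times at 0.94 to 0.975. The adipocyte markers Adipoq (adiponectin, 5067 to 6747), Fabp4, Lpl, Scd1, Plin4 and Cidec were present on all 12 arrays, while Lep (leptin, 1.3 to 3.9) and the brown adipocyte marker Ucp1 (2.0 to 5.6) were below the presence level on all 12. Other brown adipocyte markers were present on all 12, namely Cidea (788 to 1931), Cox7a1 (419 to 658), Elovl3 (28.6 to 123) and 1 probe set of Dio2 (28 to 43.8). Ppargc1a was present on at most 11. Of the macrophage markers Cd68, Cd14 and every probe set of Csf1r were present on all 12, Lyz2 on 10 and Adgre1 on 9. Only Itgam (0.9 to 12.6) was present on 0. The endothelial markers were mixed. Pecam1 (2.2 to 16) and Vwf (0.4 to 1.0) were present on none of the arrays and Kdr (31.3 to 66.7) on all 12. Tek was present on 3 and Cdh5 on at most 4. The fibroblast markers had summed signals of 19538 to 21340 at 1 hr and 20386 to 25239 at 7 hrs, but their levels were uneven. The highest were 1 probe set of Vim (4478.6 to 6906.5) and 1 of Col3a1 (3643.2 to 5255). Among the low ones were Thy1 (40.8 to 67.2), Dlk1 (at most 46.2) and 1 probe set of Pdgfrb (17 to 66.7, present on 9 arrays).

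The number of probe sets that differed from 1 hr grew with time. Among 15722 tested probe sets, which represented 9230 genes, 174 differed at 2 hrs, 1192 at 4 hrs and 2011 at 7 hrs at an adjusted p below 0.05, or 1.11%, 7.58% and 12.8% of those tested. At 2 hrs 84 were higher (0.534%) and 90 lower (0.572%), at 4 hrs 707 (4.5%) and 485 (3.08%), and at 7 hrs 1157 (7.36%) and 854 (5.43%). Changes of at least 2-fold were found for 72, 250 and 377 of them, with 25 rises and 47 falls at 2 hrs and 197 rises and 180 falls at 7 hrs. Without the replicate number as a block the counts were 81, 576 and 1185. From 2 to 4 hrs 193 probe sets changed (1.23%) and from 4 to 7 hrs 63 (0.401%), which became 52 and 1 without the block. The 3 comparisons with 1 hr share the same 3 baseline arrays, so their values are given side by side and were not treated as separate evidence. In cultures such as these, fewer cells of a type and less RNA per cell cannot be told apart.

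**Figure D1:**
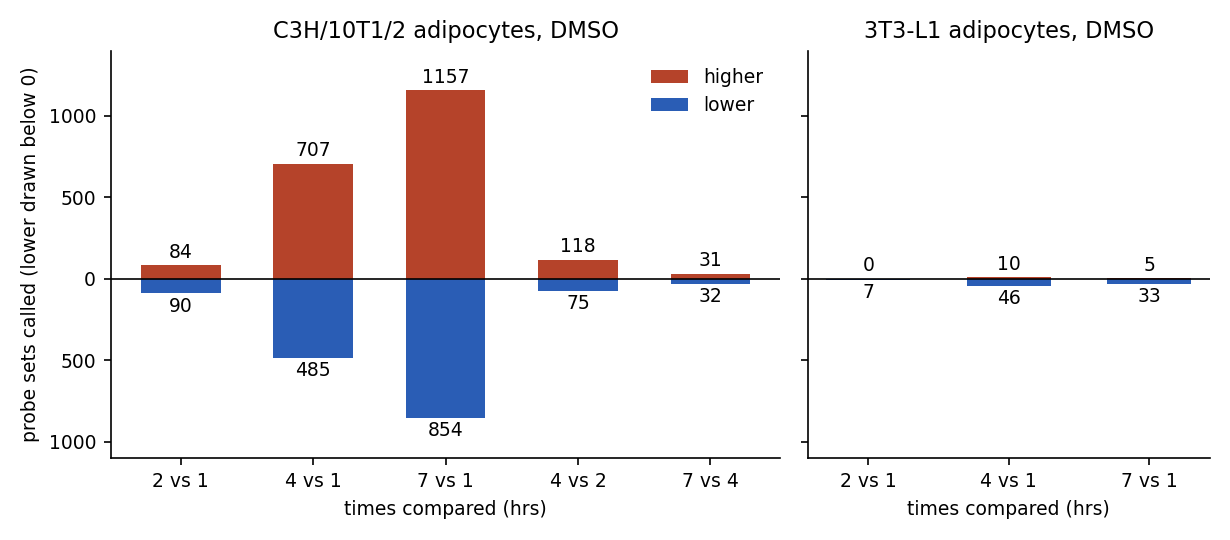
Number of probe sets with an adjusted p below 0.05 in each comparison, higher and lower shown separately, for C3H/10T1/2 adipocytes and, on the other panel, for 3T3-L1 adipocytes with DMSO. In C3H/10T1/2 adipocytes the counts grew from 174 at 2 hrs to 2011 at 7 hrs.

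Immediate early genes were lower from 2 hrs on. Their list had 39 tested probe sets for 28 genes, of which 21 (53.8%) were lower and 0 higher at 2 hrs, against 0.572% lower and 0.534% higher over all probe sets. At 4 hrs 27 were lower and 3 higher, against 3.08% and 4.5% over all, and at 7 hrs 23 and 1, against 5.43% and 7.36%. By gene, 15 of 28 were lower at 2 hrs, 19 at 4 hrs and 17 at 7 hrs, while 0, 3 and 1 were higher. Its median change on the log2 scale was -1.20, -1.02 and -1.04 at the 3 times, beside 0.02, 0.05 and 0.08 over all probe sets. The promoters of 6 of these genes are shown because they stood among the largest falls at 2 or 4 hrs and are the 6 with the largest 2 hr change of 7 such genes that met the further criteria for printing, 1 RefSeq start among them. Each window is the 250 bases before the start, 5′ to 3′ on the gene's strand, from RefSeq on GRCm38.p6. Capitals mark exact matches, on either strand, to a motif searched for.
Fosb: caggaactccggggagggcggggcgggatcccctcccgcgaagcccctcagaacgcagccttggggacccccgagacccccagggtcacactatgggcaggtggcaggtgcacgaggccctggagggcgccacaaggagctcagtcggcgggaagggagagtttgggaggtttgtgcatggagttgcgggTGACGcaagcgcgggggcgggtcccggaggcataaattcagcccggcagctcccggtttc
Nr4a1: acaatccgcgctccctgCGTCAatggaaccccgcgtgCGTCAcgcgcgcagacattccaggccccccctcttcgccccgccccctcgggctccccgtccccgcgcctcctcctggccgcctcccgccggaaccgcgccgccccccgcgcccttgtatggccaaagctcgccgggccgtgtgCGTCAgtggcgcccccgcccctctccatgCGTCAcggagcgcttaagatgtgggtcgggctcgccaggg
Fos: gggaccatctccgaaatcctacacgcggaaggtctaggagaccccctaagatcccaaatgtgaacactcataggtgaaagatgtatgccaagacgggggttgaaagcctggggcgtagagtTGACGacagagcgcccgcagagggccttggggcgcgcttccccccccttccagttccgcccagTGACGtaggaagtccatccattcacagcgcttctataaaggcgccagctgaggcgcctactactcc
Jun: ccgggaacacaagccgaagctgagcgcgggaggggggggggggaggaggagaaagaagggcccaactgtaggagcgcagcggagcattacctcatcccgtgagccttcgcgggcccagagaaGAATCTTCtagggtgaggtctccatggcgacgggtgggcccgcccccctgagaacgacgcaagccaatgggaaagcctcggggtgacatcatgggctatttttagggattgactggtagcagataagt
Atf3: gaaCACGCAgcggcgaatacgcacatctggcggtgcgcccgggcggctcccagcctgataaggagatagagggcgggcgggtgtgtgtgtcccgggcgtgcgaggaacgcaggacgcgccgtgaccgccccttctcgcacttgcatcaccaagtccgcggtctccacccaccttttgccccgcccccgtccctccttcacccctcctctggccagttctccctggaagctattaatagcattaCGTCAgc
Ccn1: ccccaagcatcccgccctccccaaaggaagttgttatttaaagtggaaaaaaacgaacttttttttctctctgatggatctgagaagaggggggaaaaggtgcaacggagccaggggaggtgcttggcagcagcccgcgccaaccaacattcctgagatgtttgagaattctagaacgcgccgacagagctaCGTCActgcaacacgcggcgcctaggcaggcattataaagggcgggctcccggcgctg

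The windows lie at chr7:19310046-19310295 (minus strand) for Fosb, chr15:101266596-101266845 (plus) for Nr4a1, chr12:85473640-85473889 (plus) for Fos, chr4:95052223-95052472 (minus) for Jun, chr1:191183334-191183583 (minus) for Atf3 and chr3:145649986-145650235 (minus) for Ccn1. The search covered the cyclic AMP response element TGACGTCA, its core TGACG (also counted where it lies inside the full element), the AP-1 site TGANTCA, the E-box CACGTG, the D-box TTATGTAA, the heat shock pair GAANNTTC, the xenobiotic core TGCGTG and the serum response CArG box. The core TGACG was present in 5 of the 6 windows, 4 times in Nr4a1 and 2 times in Fos, and the full element in 0. Jun had only the heat shock pair. The match nearest to a start was that of Atf3, 7 to 3 bases before it. Of 29 windows of the 22 tested immediate early genes with an entry, 65.5% held the core, against 17.8% of all 32851 windows, and the full element was in 10.3% against 1.55%. The CArG box, the element bound by serum response factor, was in 20.7% of the 29 windows and in 1.47% of all (13.6% of the 22 genes and 1.62% of all genes), and the AP-1 site in 0% and 6.75%. A match describes the letters of the window and does not show that a factor bound there.

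Fos, Fosb and Jun fell by 2 hrs and were low at 7 hrs. The signals of Fos, a subunit of AP-1, were 150.4, 335 and 264 at 1 hr, 57.1, 67 and 70.9 at 2 hrs, 42.5, 68.2 and 84.6 at 4 hrs, then 51.3, 59.6 and 63.8 at 7 hrs. All arrays from 2 hrs on were below all arrays at 1 hr, and Fos fell at 2 hrs (log2 fold change -1.87 ± 0.19, adjusted p = 9.71e-05) with a similar value at 7 hrs (-2.03 ± 0.19, adjusted p = 1.32e-05). Fosb, its relative, gave 193, 239.5 and 335 at 1 hr, 60.4, 61.7 and 75.6 at 2 hrs, then 39.2, 21 and 34.9 at 7 hrs. The groups did not overlap, and it fell by 2 hrs (-1.93 ± 0.21, adjusted p = 0.000186) and again from 2 to 4 hrs (-1.40 ± 0.21, adjusted p = 0.00506). Jun, the AP-1 partner of Fos, had signals of 1162, 1025 and 1259.5 at 1 hr, 377, 355 and 425 at 2 hrs, then 374, 364 and 453 at 7 hrs. Every array at 2 and 7 hrs was below the lowest at 1 hr, and its change at 2 hrs was -1.57 ± 0.11, adjusted p = 7.44e-06. Fosl1 (log2 -1.69), Ier2 (-1.20), Klf6 (-1.37), Myc (-0.91) and Dusp1 (-1.21) also fell at 2 hrs, while Junb (0.13 ± 0.15, adjusted p = 0.815) and Fosl2 (0.43 ± 0.22, adjusted p = 0.526) did not pass. Jund and Srf, the serum response factor, passed later, with log2 changes of -0.54 and -1.02 at 4 hrs.

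Egr1 and Nr4a1, an early growth response factor and an orphan nuclear receptor, had different courses. Egr1 signals were 314, 313 and 569.8 at 1 hr, 82.5, 66.2 and 158 at 2 hrs, 155, 183 and 306 at 4 hrs, then 145, 181 and 181 at 7 hrs. It was lowest at 2 hrs (-2.01 ± 0.18, adjusted p = 4.37e-05) and rose from 2 to 4 hrs (1.11 ± 0.18, adjusted p = 0.00848). That rise (adjusted p = 0.185 without the block) and the lower level at 4 hrs than at 1 hr (adjusted p = 0.145 without the block) both rested on the block. Nr4a1 gave 595, 523 and 529.5 at 1 hr, 223, 123 and 121 at 2 hrs, 143, 178 and 209.8 at 4 hrs, then 117, 108 and 149.6 at 7 hrs, and stayed low (-2.15 ± 0.21, adjusted p = 2.5e-05 at 7 hrs). Egr2 was at 70.1, 69.2 and 122 at 1 hr and below the presence level on all 3 arrays at 2 hrs (13.4, 17.8 and 12.4), so no fold is given for that time. Egr3, a relative of Egr1, gave -0.22 ± 0.33, adjusted p = 0.876 at 2 hrs, and Nr4a2, a relative of Nr4a1, gave -0.13 ± 0.32, adjusted p = 0.936.

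Atf3, a stress-induced factor, had its lowest values at 4 and 7 hrs, with signals of 252, 181 and 265 at 1 hr, 91.4, 74.4 and 115 at 2 hrs, 58.7, 47.6 and 48.5 at 4 hrs, then 50.5, 46.5 and 18.9 at 7 hrs. No later array reached those at 1 hr. Its 2 hr change rested on the block (-1.32 ± 0.29, adjusted p = 0.0437, and adjusted p = 0.0789 without the block), and its 7 hr fall was -2.70 ± 0.29, adjusted p = 5.47e-05. Ccn1, a secreted matricellular protein, gave 197, 209.8 and 191 at 1 hr and 62.9, 35.3 and 70.2 at 4 hrs (-1.89 ± 0.23, adjusted p = 0.000183). Its relative Ccn2 gave -0.70 ± 0.23, adjusted p = 0.0571 at 7 hrs and did not pass.

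The immediate early list also held members that rose. Ier3, an early response gene of cell survival, had signals of 119, 139.9 and 183 at 1 hr, 438, 187 and 174 at 2 hrs, 516, 734 and 1100.3 at 4 hrs, then 703, 595 and 885 at 7 hrs. Its groups at 1 and 2 hrs overlapped, and it was higher at 4 hrs (2.36 ± 0.31, adjusted p = 0.000399) and at 7 hrs (2.31 ± 0.31, adjusted p = 0.000258). Junb (0.69 ± 0.15, adjusted p = 0.0105) and Zfp36, which encodes an mRNA decay factor (0.70 ± 0.18, adjusted p = 0.0339), were called higher at 4 hrs and at neither of the other times. The 1 and 4 hr arrays of Zfp36 overlapped (adjusted p = 0.145 without the block).

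**Figure D2:**
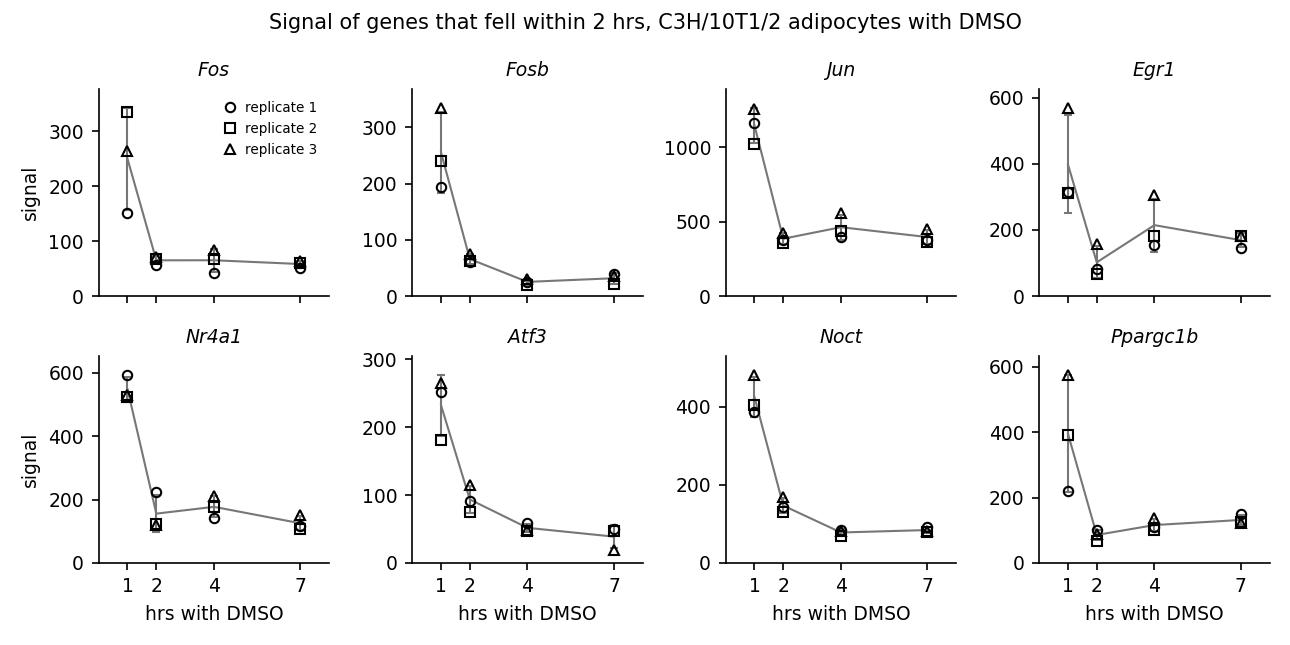
Signal of 8 genes on each of the 12 arrays against hrs with DMSO; symbols mark the 3 replicates, the grey line joins the means and bars are SD. Jun fell from 1025 to 1259.5 at 1 hr to 355 to 425 at 2 hrs, and Egr1 was lowest at 2 hrs.

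Feedback regulators of the MAP kinase cascades, which are themselves induced by the kinases they restrain, also fell. Of 21 probe sets of this list 6 were lower at 2 hrs, 9 at 4 hrs and 10 at 7 hrs, with 0, 1 and 1 higher and medians of -0.28, -0.59 and -0.82. The lower shares were 28.6%, 42.9% and 47.6%, against 0.572%, 3.08% and 5.43% over all. Dusp10, a phosphatase of p38 and JNK, had signals of 575, 446 and 449 at 1 hr, 196, 156 and 145 at 2 hrs, 137, 105 and 136 at 4 hrs, then 134, 105 and 114 at 7 hrs. All later arrays were below those at 1 hr, with -2.05 ± 0.12, adjusted p = 4.59e-07 at 7 hrs. Dusp6, a phosphatase of ERK, went from 105, 137 and 103 at 1 hr to 30.7, 27.2 and 37.7 at 2 hrs (-1.85 ± 0.19, adjusted p = 0.000119). Errfi1, an inhibitor of the EGF receptor, went from 236, 269 and 281 to 77.6, 80.1 and 68.9 (-1.79 ± 0.17, adjusted p = 6.31e-05). Spred2, an inhibitor of Raf activation, did not differ at 2 hrs beyond its spread (0.17 ± 0.15, adjusted p = 0.764) and fell from 2 to 4 hrs (-1.49 ± 0.15, adjusted p = 0.000407). Among targets of the glucocorticoid receptor, 3 of 29 probe sets were lower at 2 hrs (10.3%), 7 at 4 hrs (24.1%) and 9 at 7 hrs (31%). Over all probe sets 0.572%, 3.08% and 5.43% were lower. In this list 0, 3 and 2 were higher (0%, 10.3% and 6.9%, against 0.534%, 4.5% and 7.36% over all). Without the block 3, 5 and 7 were lower and 0, 0 and 1 higher. One of them, Sgk1, a kinase downstream of PI3K, fell from 331, 525 and 438 at 1 hr to 94, 214 and 125 at 7 hrs (-1.64 ± 0.19, adjusted p = 8.76e-05).

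Several regulators of metabolism fell as early. Ppargc1b, which encodes the transcriptional coactivator PGC-1β of mitochondrial genes, had the largest fall at 2 hrs among genes that met the naming rule. Its signals were 220.2, 390.2 and 576 at 1 hr, 101, 68 and 86.8 at 2 hrs, 111, 99.4 and 137 at 4 hrs, then 149, 124 and 121 at 7 hrs. The 1 hr arrays spread widely but lay above all others (-2.12 ± 0.25, adjusted p = 0.000346 at 2 hrs). Nrip1, a corepressor in fat cells, fell at 2 hrs with the block (-1.10 ± 0.17, adjusted p = 0.0036, and adjusted p = 0.0755 without the block). Pck1, the cytosolic PEPCK that feeds glyceride-glycerol in adipocytes, gave 401, 394 and 527 at 1 hr, 104, 118 and 179.8 at 2 hrs, 67.6, 78.6 and 82.8 at 4 hrs, then 120.2, 132 and 150.1 at 7 hrs. It fell to 4 hrs (-2.52 ± 0.13, adjusted p = 2.22e-07) and rose again from 4 to 7 hrs with the block (0.81 ± 0.13, adjusted p = 0.0162, and adjusted p = 0.223 without the block). Noct, a deadenylase-related gene of the clock and of lipid metabolism, fell from 387, 404 and 482 at 1 hr to 142, 129.8 and 168 at 2 hrs, then 84, 68.7 and 80.4 at 4 hrs (-2.45 ± 0.13, adjusted p = 2.22e-07). Phlda1, a pleckstrin homology protein, fell from 221, 176 and 219.6 to 59.4, 58 and 49 at 2 hrs (-1.89 ± 0.17, adjusted p = 3.63e-05).

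Of the 84 probe sets higher at 2 hrs 25 changed at least 2-fold, against 47 of the 90 that were lower. Ddit4, the REDD1 inhibitor of mTORC1, had the largest rise under the naming rule. Its signals were 120.1, 103 and 162 at 1 hr, 565, 276 and 262 at 2 hrs, 459, 251 and 368 at 4 hrs, then 412, 345 and 375 at 7 hrs, all later arrays above the 1 hr arrays (1.45 ± 0.21, adjusted p = 0.00243 at 2 hrs). Ier5l, an immediate early response homolog, went from 76.1, 59.4 and 90.7 at 1 hr to 215, 163 and 190.1 at 2 hrs (1.34 ± 0.13, adjusted p = 9.47e-05) and was at 143, 134 and 172 at 7 hrs. Zfp36l2, another mRNA decay factor, went from 226, 339.5 and 361 to 755, 704 and 764 (1.29 ± 0.18, adjusted p = 0.00197). Rara, a retinoic acid receptor, was near the presence level at 1 hr (21.8, 16.1 and 23.9) and reached 76.3, 42.5 and 46.4 at 2 hrs (1.39 ± 0.20, adjusted p = 0.00271). Castor2, whose family senses arginine for mTORC1, went from 36.5, 53.2 and 59.8 to 125, 104 and 131 (1.29 ± 0.22, adjusted p = 0.00801). Gadd45b, a stress sensor, was higher with the block (1.06 ± 0.14, adjusted p = 0.00174) and missed the threshold without it (adjusted p = 0.0535 without the block).

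The FoxO and fasting list moved both ways, with 4 probe sets higher and 2 lower of 30 at 2 hrs, 7 and 3 at 4 hrs, and by 7 hrs 8 higher and 5 lower. The shares higher were 13.3%, 23.3% and 26.7%, against 0.534%, 4.5% and 7.36% over all. The shares lower were 6.67%, 10% and 16.7%, against 0.572%, 3.08% and 5.43%. Without the block 2, 5 and 5 were higher and 2, 3 and 5 lower. Sesn1, a sestrin that inhibits mTORC1, gave 131, 123 and 139 at 1 hr, 198, 257 and 222 at 2 hrs, 233, 268 and 328 at 4 hrs, then 195, 199.5 and 184 at 7 hrs. All later arrays were above those at 1 hr, and the values were highest at 4 hrs (1.06 ± 0.14, adjusted p = 0.000373). Sesn3, another sestrin, rose from 126, 121 and 153 at 2 hrs to 219, 275 and 306 at 4 hrs (1.00 ± 0.14, adjusted p = 0.00353) and 257, 315 and 306 at 7 hrs. Txnip, an inhibitor of glucose uptake, rose at 2 hrs with the block (0.64 ± 0.11, adjusted p = 0.00898, and adjusted p = 0.128 without the block). Cdkn1b, the cell cycle inhibitor p27, went from 75.8, 82.5 and 119.9 at 1 hr to 223, 181 and 243 at 4 hrs (1.24 ± 0.16, adjusted p = 0.000401). Pck1 and Trib1 moved the other way in this list. Pdk4, the kinase that shuts pyruvate dehydrogenase, had signals of 479.5, 459 and 491 at 1 hr, 404, 496 and 559 at 2 hrs, 419, 493 and 432 at 4 hrs, then 241, 295 and 237 at 7 hrs. The groups at 1, 2 and 4 hrs overlapped, and it was lower on all 3 arrays at 7 hrs (-0.90 ± 0.13, adjusted p = 0.00039).

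Members of the Krüppel-like factor family, several of which act in adipocyte differentiation, split in direction. Of 25 probe sets for 11 genes, 4 were higher and 5 lower at 2 hrs, 4 and 11 at 4 hrs, and by 7 hrs 2 were higher and 10 lower. The shares higher were 16%, 16% and 8%, against 0.534%, 4.5% and 7.36% over all, so the rises at 7 hrs were near the share over all. The shares lower were 20%, 44% and 40%, against 0.572%, 3.08% and 5.43%. Klf10, a TGF-β-inducible member, rose from 83, 92.2 and 81.2 at 1 hr to 166, 178 and 149 at 2 hrs (0.94 ± 0.13, adjusted p = 0.00139) and 203, 187 and 153 at 7 hrs. Klf15, which acts in fasting metabolism and adipogenesis, had signals of 63.7, 27.9 and 33.1 at 1 hr and overlapping values of 47.6, 68.7 and 76.5 at 2 hrs. It was higher on all arrays at 4 hrs (99.1, 126 and 118) and at 7 hrs (109, 134 and 120.3), with a 7 hr change of 1.63 ± 0.27, adjusted p = 0.00122. Klf6 fell at 2 hrs from 630.4, 679 and 765 to 261, 272 and 268 (-1.37 ± 0.12, adjusted p = 3.59e-05). Klf9 fell from 592, 656 and 436 at 1 hr to 255, 311 and 244 at 7 hrs (-1.05 ± 0.13, adjusted p = 0.000125). Klf7 also fell (-0.92 ± 0.13, adjusted p = 0.000485 at 7 hrs), and Klf4 was lower at 4 hrs (-0.96 ± 0.19, adjusted p = 0.0076) but gave -0.40 ± 0.19, adjusted p = 0.203 at 7 hrs.

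A small group of genes turned within the 7 hrs, as a description, since most of these pairs of comparisons share the arrays of the middle time. There were 15 genes lower at 2 or 4 hrs that then rose in a later step (4 without the block), and 1 gene that rose and then fell (0 without it), Serpinb8, a serine protease inhibitor with log2 changes of 1.23 at 4 hrs and -0.84 from 4 to 7 hrs (adjusted p = 0.178 without the block). Pfkfb3 makes the activator of phosphofructokinase. Its signals were 164, 156 and 192 at 1 hr, 52.1, 62.7 and 60.5 at 2 hrs, 142, 232 and 271 at 4 hrs, then 211, 337 and 196 at 7 hrs, low on all 3 arrays at 2 hrs and overlapping the 1 hr values at 4 hrs. It fell by 2 hrs (-1.55 ± 0.20, adjusted p = 0.000964) and rose to 4 hrs (1.83 ± 0.20, adjusted p = 0.000644). The other tested probe set of Pfkfb3 did not pass at 2 hrs (-0.53, adjusted p = 0.335 by limma). Rreb1, a Ras-responsive factor, went from 160, 169 and 162 at 1 hr to 51.3, 55.9 and 58.5 at 2 hrs, then 108, 119 and 107 at 4 hrs, with steps of -1.57 ± 0.15, adjusted p = 5.01e-05 and 1.01 ± 0.15, adjusted p = 0.00481. Map3k1, a kinase upstream of JNK, gave -0.92 and 1.05 for the same steps. Acvr1b, an activin receptor, fell from 210.4, 272 and 191 at 1 hr to 115, 128 and 115 at 2 hrs and went on to 405, 436 and 363 at 7 hrs, above where it began (0.85 ± 0.12, adjusted p = 0.000336). Inhbb, which encodes the activin B subunit, rose from 101, 68.3 and 92.3 at 1 hr through 150.1, 143 and 176 at 2 hrs to 313, 305 and 346 at 7 hrs (1.90 ± 0.14, adjusted p = 2.67e-06).

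Part of the genes of cytokine signalling rose by 4 hrs. Of the 36 probe sets of NF-κB targets and cytokines, 1 was higher and 3 were lower at 2 hrs, 8 and 1 at 4 hrs, and by 7 hrs 11 were higher and 0 lower. The shares higher were 2.78%, 22.2% and 30.6%, against 0.534%, 4.5% and 7.36% over all. The shares lower were 8.33%, 2.78% and 0%, against 0.572%, 3.08% and 5.43%. Without the block 0 were called at 2 hrs, 4 were higher at 4 hrs and 6 at 7 hrs. The 16 chemokine probe sets had 3 rises at 4 hrs (18.8%) and 4 at 7 hrs (25%), of which 2 and 2 passed without the block. Ccl2, the monocyte chemoattractant MCP-1, had signals of 569.6, 642 and 323 at 1 hr, 419, 709 and 312 at 2 hrs, 1622, 2019.7 and 1677 at 4 hrs, then 1677, 1539.6 and 1624 at 7 hrs. It did not differ at 2 hrs beyond its spread, rose from 2 to 4 hrs (1.96 ± 0.20, adjusted p = 0.000407) and lay in the same range at 7 hrs. Ccl7, a related chemokine, gave 62.2, 80.5 and 50.3 at 1 hr, 113, 124 and 43.7 at 2 hrs, then 344, 423 and 278 at 4 hrs, where it had the largest rise under the naming rule (2.44 ± 0.21, adjusted p = 1.19e-05). Cebpd, an early adipogenic and inflammatory factor, was higher at 4 hrs with the block (1.09 ± 0.18, adjusted p = 0.00217, and adjusted p = 0.0618 without the block). The other tested probe set of Cebpd did not pass at 4 hrs (-0.05, adjusted p = 0.92 by limma). Bcl3, an atypical IκB protein, went from 40.2, 22.3 and 30.4 at 1 hr to 102, 62 and 46.2 at 7 hrs (1.14 ± 0.23, adjusted p = 0.00531). Csf1, the macrophage growth factor, was called higher at 2 hrs with the block (0.62 ± 0.14, adjusted p = 0.0414, and adjusted p = 0.137 without the block). No other tested probe set of Csf1 passed at 2 hrs. Over these times the 7 macrophage probe sets had 0 calls in any comparison with 1 hr (0, 1 and 2 higher and 0 lower at an unadjusted p below 0.05, a level that 11.1%, 22.5% and 27% of all probe sets passed), and their summed signal was 650 to 791 at 1 hr and 695 to 815 at 7 hrs.

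Some feedback genes of cytokine receptors and STAT factors rose over the same hours. Of 28 probe sets 5 were higher at 4 hrs (17.9%, against 4.5% over all) and 8 at 7 hrs (28.6%, against 7.36%), with 0 lower at either. They were those of Pim3 and Socs3 at 4 hrs, 2 of 15 genes, and also of Stat3 and Stat5b at 7 hrs, 4 of 15. Socs3, the inhibitor of JAK kinases, was the largest rise at 7 hrs among genes named by the rule. Its signals were 26.3, 50 and 91.3 at 1 hr, 84.6, 114 and 49.9 at 2 hrs, 354, 221 and 159 at 4 hrs, then 365, 334 and 287 at 7 hrs, with all arrays from 4 hrs on above those at 1 hr. The spread at 1 hr was wide, and the changes were 2.23 ± 0.39, adjusted p = 0.00307 at 4 hrs and 2.73 ± 0.39, adjusted p = 0.000445 at 7 hrs. Pim3, a kinase induced by STAT factors, rose from 1113, 846 and 925 at 1 hr to 1543, 1693 and 1625 at 7 hrs (0.76 ± 0.12, adjusted p = 0.000767). Rasd1, a dexamethasone-inducible Ras protein, rose from 138, 121 and 136 at 1 hr through 308, 243 and 208 at 2 hrs to 511, 475 and 497 at 7 hrs (1.91 ± 0.13, adjusted p = 1.76e-06). Of 21 probe sets of interferon targets, 0 differed at 2 and 4 hrs and 2 were higher at 7 hrs (9.52%, against 7.36% over all), both of Gbp2, a guanylate-binding protein, and 0 without the block.

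**Figure D3:**
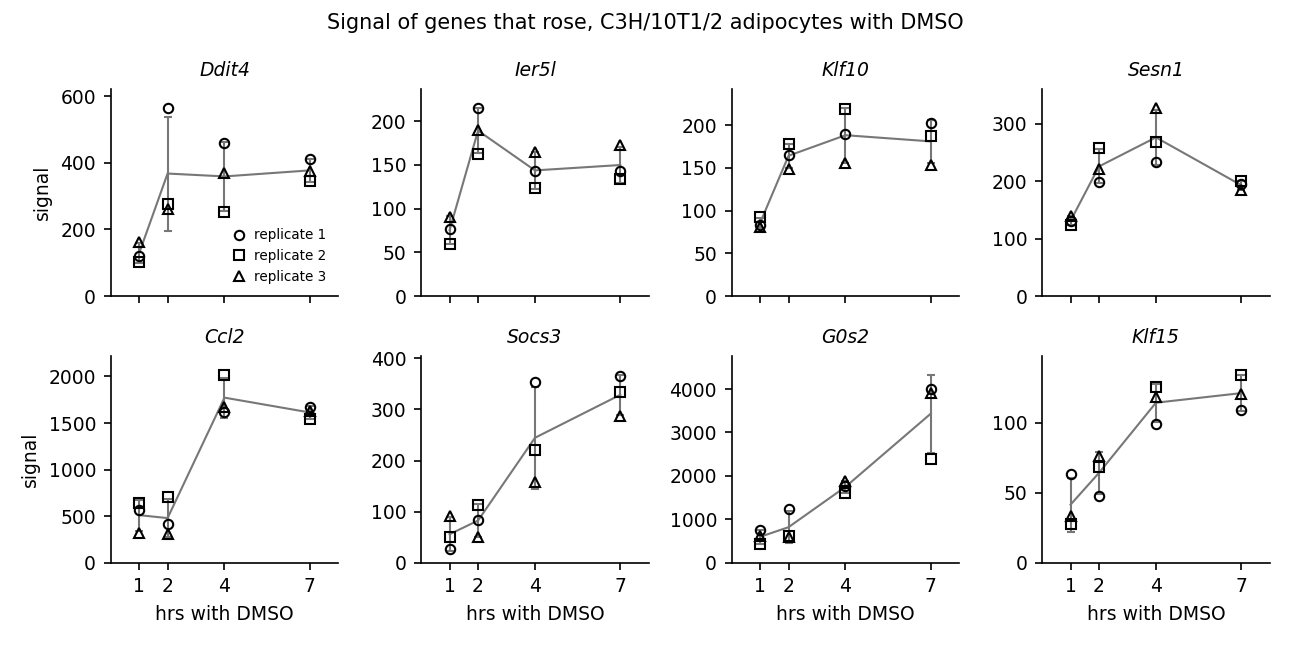
Signal of 8 genes that rose, on each of the 12 arrays against hrs with DMSO; symbols mark the 3 replicates, the grey line joins the means and bars are SD. Ddit4 and Ier5l were up at 2 hrs, Ccl2 at 4 hrs, and G0s2 reached 2400 to 4004 at 7 hrs.

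Some of the factors that hold the adipocyte state rose. Of 29 probe sets of adipogenic transcription factors for 18 genes, 0 differed at 2 hrs. At 4 hrs 5 were higher (17.2%, against 4.5% over all) and at 7 hrs 8 (27.6%, against 7.36%), with 0 lower and medians of 0.25 at both times. Without the block 3 and 5 were higher. Pparg gave 575, 735 and 571 at 1 hr, 633, 662 and 578 at 2 hrs, 827, 856 and 966 at 4 hrs, then 847, 991 and 858 at 7 hrs (0.53 ± 0.11, adjusted p = 0.00724). Cebpa, the C/EBPα factor, went from 1576, 1383 and 1288 at 1 hr to 2156, 1818 and 2044 at 7 hrs (0.50 ± 0.11, adjusted p = 0.0083). Both were higher on all later arrays from 4 hrs, by less than 2-fold. Targets of PPARγ moved both ways, with 5 of 41 probe sets higher (12.2%) and 7 lower (17.1%) at 4 hrs, against 4.5% and 3.08% over all. At 7 hrs 5 were higher (12.2%) and 13 lower (31.7%), against 7.36% and 5.43%. These counts became 1 and 4, and 2 and 8, without the block. G0s2, the inhibitor of adipose triglyceride lipase, was the member that rose most, from 747, 429 and 619 at 1 hr and 1248, 613 and 602 at 2 hrs to 1769.8, 1601 and 1876 at 4 hrs, then 4004, 2400 and 3900.3 at 7 hrs. All arrays from 4 hrs on were above those before, and its change at 7 hrs was 2.52 ± 0.18, adjusted p = 1.76e-06. The steps from 2 to 4 hrs (1.18 ± 0.18, adjusted p = 0.00525, and adjusted p = 0.0874 without the block) and from 4 to 7 hrs (0.94 ± 0.18, adjusted p = 0.0383, and adjusted p = 0.398 without the block) passed with the block. Cidec, a lipid droplet protein, was lower at 7 hrs (-0.54 ± 0.10, adjusted p = 0.00366). Angptl4, an inhibitor of lipoprotein lipase, was the only gene whose probe sets passed in opposite directions, at 4 hrs, so it has no direction here. The adipocyte marker list had 2 probe sets higher (Cebpa and Pparg) and 1 lower (Cidec) of 19 at 7 hrs (10.5% and 5.26%, against 7.36% and 5.43% over all), and its summed signal was 50050 to 53386 at 1 hr and 44180 to 54228 at 7 hrs.

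Genes of sterol synthesis were lower at 4 and 7 hrs. Of 38 probe sets for 20 genes of cholesterol synthesis, 0 differed at 2 hrs and 0 were higher later. At 4 hrs 10 were lower (26.3%, against 3.08% over all) and at 7 hrs 21 (55.3%, against 5.43%). Without the block these counts were 4 and 18. By gene 8 of 20 were lower at 4 hrs and 12 at 7 hrs, and the median was -0.11, -0.32 and -0.66 at the 3 times. Dhcr7, which makes cholesterol in the last step of a branch, had signals of 443, 346 and 326 at 1 hr, 341, 269.7 and 206 at 2 hrs, 203, 189.7 and 176 at 4 hrs, then 151, 113 and 81.2 at 7 hrs. Every replicate was lower at each time than at the time before, and the change passed at 4 hrs (-0.96 ± 0.14, adjusted p = 0.000725) and 7 hrs (-1.73 ± 0.14, adjusted p = 4.25e-06). Msmo1, a sterol demethylase, was at 2538, 2423 and 2491 at 1 hr, 2664, 2205 and 2418 at 2 hrs, then 1435, 1188 and 566 at 7 hrs (-1.33 ± 0.21, adjusted p = 0.000851). Mvd, of the mevalonate pathway, went from 306, 255 and 177 to 146, 130.3 and 82 (-1.05 ± 0.12, adjusted p = 9.09e-05). Replicate 3 was the lowest of the 3 at every time for Mvd and Dhcr7.

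Genes of fatty acid synthesis were called mostly at 7 hrs. Of their 27 probe sets 0 differed at 2 hrs, 1 was lower at 4 hrs and 13 at 7 hrs, where 1 was higher and the median was -0.40. The falls made up 3.7% at 4 hrs and 48.1% at 7 hrs, against 3.08% and 5.43% over all. The rise made up 3.7%, against 7.36%. Without the block 7 were lower at 7 hrs. Fasn, the fatty acid synthase, gave 2123, 2612 and 1892 at 1 hr, 1507, 1451 and 1336 at 4 hrs, then 1603, 965 and 636 at 7 hrs (-1.14 ± 0.19, adjusted p = 0.00145). Thrsp, a lipogenic nuclear protein, went from 144, 151 and 136 at 1 hr to 71.5, 94.7 and 80.4 at 4 hrs, then 48.6, 54.7 and 50 at 7 hrs, with a narrow spread (-1.49 ± 0.13, adjusted p = 1.17e-05). Elovl3, which elongates fatty acids and is counted among brown adipocyte markers, fell from 109.5, 123 and 113 at 1 hr to 28.6, 35.8 and 36.8 at 7 hrs (-1.78 ± 0.16, adjusted p = 1.02e-05). The rise in this list was Srebf1, which encodes the SREBP-1 regulator of these genes, at 880.4, 1135 and 1212 at 1 hr and 1632, 1541 and 1528 at 7 hrs (0.56 ± 0.13, adjusted p = 0.0123). In triglyceride assembly 6 of 21 probe sets were lower at 4 and at 7 hrs (28.6%, against 3.08% and 5.43% over all) and 0 higher. Lpin1, the phosphatidate phosphatase, went from 1215, 1309 and 1189 at 1 hr to 529.7, 452 and 529 at 4 hrs (-1.30 ± 0.12, adjusted p = 1.83e-05).

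Targets of the liver X receptor, the sensor of oxysterols, were mostly higher. Of 9 probe sets for 7 genes 4 were higher at 4 hrs (44.4%, against 4.5% over all) and 5 at 7 hrs (55.6%, against 7.36%). At 7 hrs 1 was lower (11.1%, against 5.43%). Without the block 1 and 3 were higher. Abca1, a cholesterol exporter, rose from 589.5, 605 and 533 at 1 hr to 824, 973 and 956 at 4 hrs, then 1138, 918 and 996 at 7 hrs (0.82 ± 0.13, adjusted p = 0.000902). Abcg1, another sterol transporter, rose from 194, 271 and 194 at 1 hr to 419.6, 501 and 480 at 7 hrs (1.10 ± 0.13, adjusted p = 9.01e-05). Lpcat3, a phospholipid-remodelling enzyme, was the one that fell (-0.56 ± 0.10, adjusted p = 0.00181). Srebf1 is counted in this list as well as in fatty acid synthesis.

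Genes of glycolysis and of the hypoxia response fell, and the lists share members. Of 35 glycolysis probe sets 3 were lower at 2 hrs (8.57%), 9 at 4 hrs (25.7%) and 17 at 7 hrs (48.6%), with 0 higher. Over all probe sets 0.572%, 3.08% and 5.43% were lower. Without the block 3, 3 and 11 of the list were lower. Of 34 hypoxia probe sets 0 were lower at 2 hrs, 18 at 4 hrs and 21 at 7 hrs, with 1, 3 and 4 higher, and 6 and 15 were lower at the later times without the block. Hk2, a hexokinase, was lowest at 2 hrs, at 205, 204 and 282 after 473, 605 and 675 at 1 hr (-1.34 ± 0.16, adjusted p = 0.000326). Eno2, an enolase, went from 182, 169 and 293 to 49.1, 53.6 and 92.7 at 2 hrs (-1.73 ± 0.22, adjusted p = 0.000964). Slc2a1, the glucose transporter GLUT1, fell from 1076, 1385 and 1475 at 1 hr to 791, 809 and 851 at 4 hrs, then 477, 605 and 779.6 at 7 hrs (-1.10 ± 0.13, adjusted p = 9.01e-05). Egln1, the oxygen sensor PHD2, went from 1405, 1529 and 1807 at 1 hr to 458, 499 and 916 at 7 hrs (-1.40 ± 0.18, adjusted p = 0.000236). P4ha2, a collagen prolyl hydroxylase, went from 737, 866 and 848 to 344, 289 and 409 (-1.24 ± 0.14, adjusted p = 6.92e-05). Against the direction of the list rose Ddit4, described above, and Adm, the vasoactive peptide adrenomedullin, from 44, 42.4 and 58.2 at 1 hr to 155, 144 and 175 at 7 hrs (1.72 ± 0.26, adjusted p = 0.000638).

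Genes of the amino acid and endoplasmic reticulum stress response were lower mainly at 7 hrs. Of 69 probe sets 1 was lower at 2 hrs (1.45%), 9 at 4 hrs (13%) and 25 at 7 hrs (36.2%), against 0.572%, 3.08% and 5.43% over all. At each time 1 was higher (Ddit4, 1.45%), against 0.534%, 4.5% and 7.36% over all. Without the block 19 were lower at 7 hrs. Mthfd2, a mitochondrial folate enzyme, went from 637, 463 and 694 at 1 hr to 327, 280.2 and 429 at 4 hrs, then 291, 186 and 197 at 7 hrs (-1.42 ± 0.15, adjusted p = 4.54e-05). Trib3, a pseudokinase that binds Akt, went from 438, 327 and 525 at 1 hr to 156, 225 and 197 at 7 hrs (-1.15 ± 0.19, adjusted p = 0.00137). Fgf21, a fasting hormone, was at 71.4, 50.4 and 49.6 at 1 hr and 21, 6.6 and 30.9 at 4 hrs, where 1 array was below the presence level, so no change is given. Of the heat shock list 2 of 28 probe sets were lower at 2 hrs (7.14%), 4 at 4 hrs (14.3%) and 7 at 7 hrs (25%). In this list 1 was higher at 2 and at 4 hrs (Hspa1b, 3.57%, against 0.534% and 4.5% over all) and 0 at 7 hrs. Without the block 1, 3 and 4 were lower and 0 higher. Dnajb1, an HSP40 cochaperone, fell from 695, 673 and 647 at 1 hr to 359.7, 363 and 397 at 2 hrs, then 249, 282 and 316 at 4 hrs (-1.26 ± 0.12, adjusted p = 3.18e-05).

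Few genes of mitochondria were called before 7 hrs. Of 124 probe sets of oxidative phosphorylation 0 differed at 2 hrs and 3 were lower at 4 hrs (2.42%, against 3.08% over all). By 7 hrs 19 were lower (15.3%, against 5.43% over all), with 0 higher and a median of -0.19. Without the block the counts were 0 and 11. Of 41 probe sets of the TCA cycle 10 were lower (24.4%) and 1 (Pdk2) higher (2.44%) at 7 hrs, against 5.43% and 7.36% over all. Without the block 6 were lower and 0 higher. Of 31 of fatty acid oxidation 7 were lower (22.6%) and 2 (Acsl5 and Cpt1a) higher (6.45%, below the share over all) at 7 hrs. Without the block 1 was lower and 0 higher. Dlat, the E2 subunit of pyruvate dehydrogenase, had signals of 826, 946 and 928 at 1 hr, 711, 705 and 726 at 4 hrs, then 496, 522 and 563 at 7 hrs (-0.77 ± 0.10, adjusted p = 0.00018). Cycs, cytochrome c, went from 5763, 4616 and 5841 to 3953, 2880.1 and 3968 (-0.59 ± 0.13, adjusted p = 0.0075). Ndufb10, of complex I, went from 1088, 1249 and 1174 to 669, 769 and 798 (-0.65 ± 0.10, adjusted p = 0.00104). Each of these 3 falls was smaller than 2-fold, and the 7 hr groups lay below the 1 hr groups. Esrra, the orphan receptor ERRα that acts with PGC-1, was lower at 7 hrs (-0.50 ± 0.14, adjusted p = 0.0274, and adjusted p = 0.0517 without the block).

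The circadian clock list, of 31 probe sets for 18 genes, had 1 rise and 3 falls at 2 hrs, 5 and 3 at 4 hrs, and by 7 hrs 6 rises and 4 falls. The rises made up 3.23%, 16.1% and 19.4%, against 0.534%, 4.5% and 7.36% over all. The falls made up 9.68%, 9.68% and 12.9%, against 0.572%, 3.08% and 5.43%. Without the block the rises and falls were 0 and 1, 1 and 2, and 5 and 3. Dbp, a D-box factor driven by CLOCK and BMAL1, had signals of 111, 121 and 100.3 at 1 hr, 61.6, 96.4 and 58.1 at 2 hrs, 129, 167 and 154 at 4 hrs, then 199, 295 and 199 at 7 hrs. It rose from 2 to 4 hrs (1.09 ± 0.15, adjusted p = 0.00341) and was higher at 7 hrs than at 1 hr (1.04 ± 0.15, adjusted p = 0.000385). Tef, a related factor, went from 310.2, 329 and 388 at 1 hr to 526, 566 and 519 at 7 hrs (0.65 ± 0.11, adjusted p = 0.00187). Bhlhe40, a repressor of the clock, rose from 101, 99.9 and 179 at 1 hr to 252, 478 and 402 at 4 hrs, then 495, 368 and 505 at 7 hrs (1.89 ± 0.31, adjusted p = 0.00113). Nr1d2, the REV-ERBβ repressor, was higher at 2 hrs with the block (0.76 ± 0.13, adjusted p = 0.00825, and adjusted p = 0.205 without the block). Rora, an activator of Bmal1, fell (-0.62 ± 0.13, adjusted p = 0.0076), while Arntl, the array's symbol for Bmal1 (-0.50 ± 0.27, adjusted p = 0.254), and Per1 (0.03 ± 0.30, adjusted p = 0.957) did not pass at 7 hrs.

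Fibroblast markers and matrix genes rose in part. Of 17 probe sets of 9 fibroblast markers 0 differed at 2 hrs, 2 were higher at 4 hrs (11.8%, against 4.5% over all) and 5 at 7 hrs (29.4%, against 7.36%), with 0 lower. At 7 hrs these were probe sets of Pdgfra, Pdgfrb, Col3a1 and Fn1, and 2 passed without the block. Pdgfra, the PDGF receptor α, had signals of 139, 134 and 138 at 1 hr, 131, 129 and 184 at 2 hrs, 218, 323 and 299 at 4 hrs, then 259, 268 and 341 at 7 hrs (1.07 ± 0.15, adjusted p = 0.000353). Vim, vimentin (0.13 ± 0.12, adjusted p = 0.552), did not pass. Matrix and remodeling genes had 6 rises (9.09%) and 3 falls (4.55%) among 66 probe sets at 4 hrs, against 4.5% and 3.08% over all. By 7 hrs they had 13 rises (19.7%) and 4 falls (6.06%), against 7.36% and 5.43%, so the falls lay near the share over all. Without the block these became 1 and 1, and 7 and 3. Mmp11, the protease stromelysin 3, rose from 343, 405 and 555 at 1 hr through 432, 542 and 868 at 2 hrs to 929.5, 1548 and 1954 at 4 hrs, then 1435, 1931 and 2483 at 7 hrs. Its replicates were in the same order at every time, the groups at 1 and 2 hrs overlapped, and its change was 2.16 ± 0.11, adjusted p = 2.42e-07 at 7 hrs. Thbs1, thrombospondin 1, fell from 92.4, 91.5 and 124 at 1 hr to 38.1, 40.2 and 43.9 at 7 hrs (-1.32 ± 0.18, adjusted p = 0.000353). Adamts1, a matrix protease, fell from 545, 499 and 601 at 1 hr to 306, 284 and 265 at 7 hrs (-0.94 ± 0.12, adjusted p = 0.000162). The smooth muscle list had 1 of 3 probe sets higher at 7 hrs (Des), and the endothelial, skeletal muscle, and osteoblast and chondrocyte lists had 0 calls, on 3, 1 and 4 tested probe sets. Whether a change in the mix of cells had a part in the matrix genes was not tested.

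The lists of protein synthesis and breakdown gave few calls. None of 66 probe sets of cytosolic ribosomal proteins was called by limma at 2, 4 or 7 hrs, and 0 rose and 4, 2 and 3 fell at an unadjusted p below 0.05. Of 51 probe sets of the proteasome 0, 2 and 2 were called, and of 51 of ribosome biogenesis 1, 3 and 2, where 1.11%, 7.58% and 12.8% of all probe sets were called. The 1 rise of ribosome biogenesis at 2 hrs made up 1.96% of its list, against 0.534% over all, so that list was not low there. Of 48 cell cycle probe sets 0 were called at 2 hrs, 3 were higher and 3 lower at 4 hrs (6.25% each, against 4.5% and 3.08% over all), and by 7 hrs 3 were higher (6.25%, against 7.36%) and 6 lower (12.5%, against 5.43%), those of Ccnd2 and Cdkn1a.

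**Figure D4:**
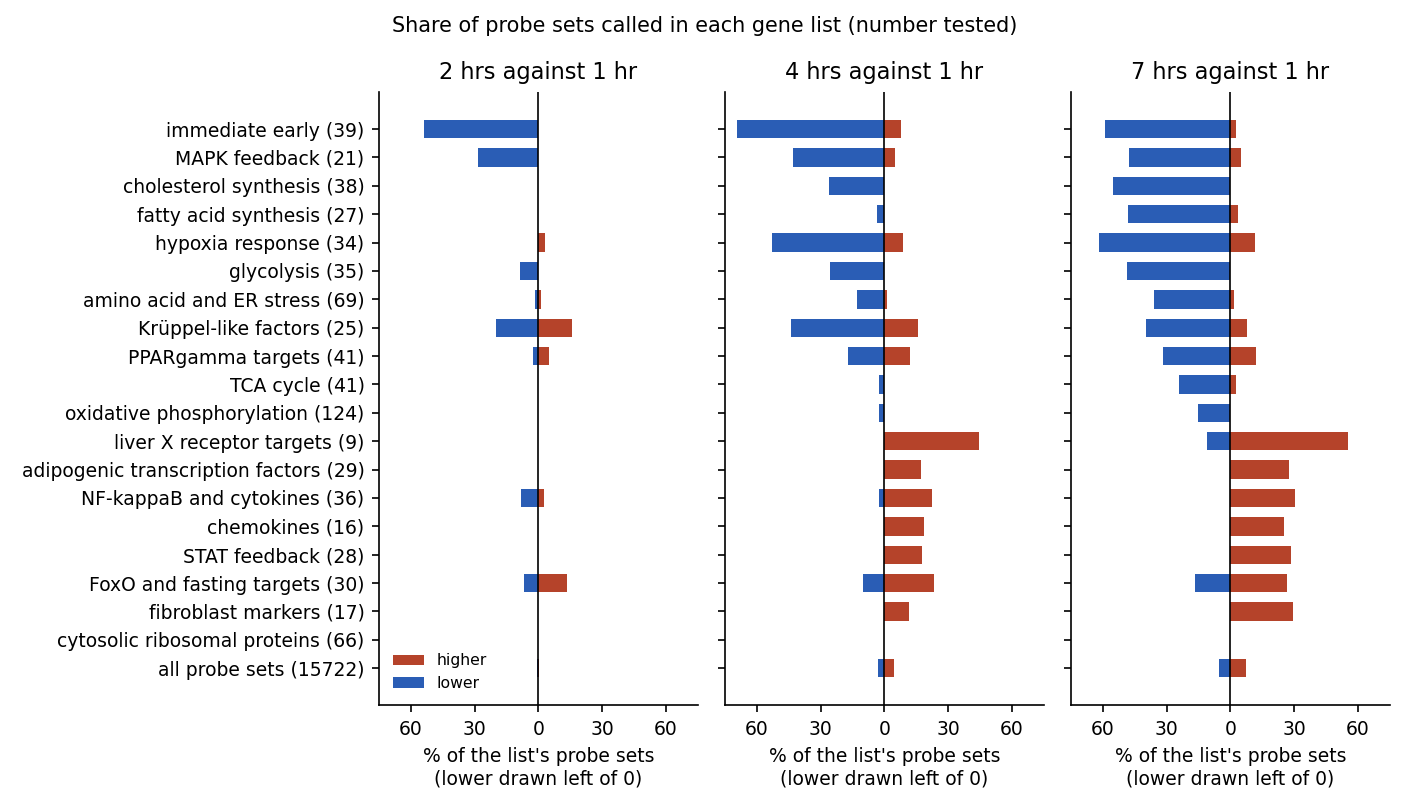
Percent of tested probe sets higher (right of 0) or lower (left of 0) than at 1 hr at an adjusted p below 0.05, for 19 gene lists and for all probe sets, at 2, 4 and 7 hrs; the number tested stands in parentheses. Immediate early genes fell from 2 hrs on, lipid synthesis, glycolysis and hypoxia lists by 4 or 7 hrs, and cytosolic ribosomal proteins had 0 calls.

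The same hours were compared with 3T3-L1 adipocytes given DMSO, the other adipocyte line of the study. The 11 arrays of that line had 3 per time except 2 at 2 hrs. In a joint fit of 17641 probe sets, 3T3-L1 adipocytes had 7, 56 and 38 calls at 2, 4 and 7 hrs against 1 hr (0.0397%, 0.317% and 0.215%), and C3H/10T1/2 adipocytes had 173, 953 and 1763 (0.981%, 5.4% and 9.99%). The change itself differed between the lines for 13 probe sets (0.0737%) by 2 hrs, 188 (1.07%) by 4 hrs and 549 (3.11%) by 7 hrs, the last with 297 more positive and 252 more negative in C3H/10T1/2. Without the block 266 differed at 7 hrs. The lines were differentiated with different agents, so line and protocol cannot be told apart.

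Falls of some immediate early genes, and those of Noct (clock list) and Dusp10 (MAP kinase feedback list), were among the differences at 7 hrs. In 3T3-L1 adipocytes Noct was at 229, 143 and 153 at 1 hr and 274, 162 and 150.2 at 7 hrs (0.14 ± 0.17, adjusted p = 0.954), and the difference between the lines was -2.47 ± 0.25, adjusted p = 1.06e-05. Fos (-1.55 ± 0.28, adjusted p = 0.00437), Jun (-0.94 ± 0.20, adjusted p = 0.0124) and Dusp10 (-1.90 ± 0.19, adjusted p = 1.22e-05) also differed, while Ccn1 (-1.01 ± 0.35, adjusted p = 0.14) and Myc (-0.35 ± 0.24, adjusted p = 0.559) did not pass. For Egr1 the difference was -1.03 ± 0.27, adjusted p = 0.0402. Dhcr7 went from 110.3, 97.9 and 88 to 137, 98 and 81.6 in 3T3-L1 adipocytes (0.07 ± 0.17, adjusted p = 0.989), with a difference of -1.79 ± 0.23, adjusted p = 0.000222. Thrsp went from 783, 762 and 703 to 819, 689.6 and 841 there (0.06 ± 0.12, adjusted p = 0.984), with a difference of -1.55 ± 0.17, adjusted p = 3.66e-05. The 1 and 7 hr arrays of Noct, Dhcr7 and Thrsp overlapped in 3T3-L1 adipocytes.

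Among the rises, Socs3 was at 323, 328 and 347 at 1 hr and 165, 189 and 148 at 7 hrs in 3T3-L1 adipocytes, a decrease that did not pass (adjusted p = 0.394), and the difference between the lines was 3.73 ± 0.50, adjusted p = 0.000295. Its 7 hr signals in C3H/10T1/2 adipocytes lay around the 1 hr signals of 3T3-L1 adipocytes. G0s2 (2.02 ± 0.24, adjusted p = 8.35e-05), Mmp11 (1.95 ± 0.18, adjusted p = 8.54e-06), Ccl7 (1.69 ± 0.31, adjusted p = 0.00444) and Dbp (1.47 ± 0.19, adjusted p = 0.000261) also had a more positive change in C3H/10T1/2 adipocytes. The contractile genes Acta2 (smooth muscle actin) and Cnn2 (calponin 2) fell in 3T3-L1 adipocytes. Acta2 went there from 1177, 1695 and 1589.9 to 398, 341 and 491 (-1.86 ± 0.15, adjusted p = 7.67e-07) and gave 0.39 ± 0.15, adjusted p = 0.099 in C3H/10T1/2 adipocytes.

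A few falls were found in both lines and the change did not differ between them at the threshold. P4ha2 fell in 3T3-L1 adipocytes (-1.07 ± 0.17, adjusted p = 0.00522), with a difference of -0.18 ± 0.24, adjusted p = 0.821, and Trib3 likewise (-1.06 ± 0.19, adjusted p = 0.0169), with a difference of -0.09 ± 0.27, adjusted p = 0.939. The second probe set of Trib3 was called in neither line.

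**Figure D5:**
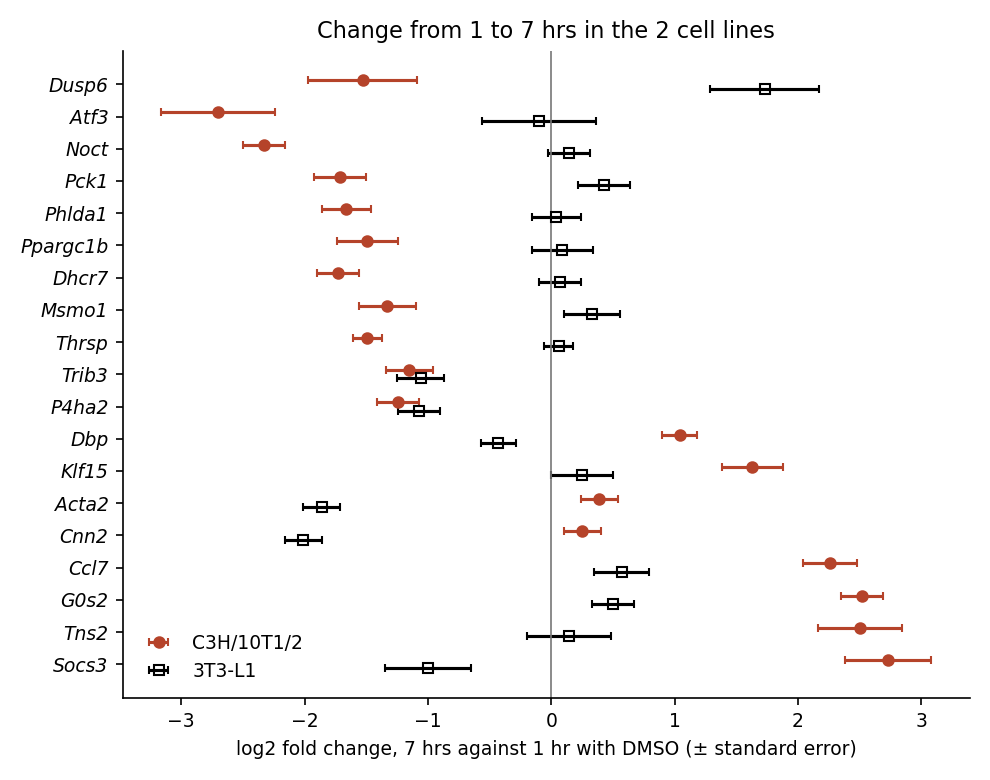
Log2 fold change from 1 to 7 hrs with DMSO for 19 genes in C3H/10T1/2 (filled circles) and 3T3-L1 adipocytes (open squares) from the joint fit; bars are standard errors, and the genes were picked from those of the text after their values were seen. Noct and Dhcr7 lie below 0 in C3H/10T1/2 adipocytes and near 0 in 3T3-L1 adipocytes, Acta2 and Cnn2 lie below 0 in 3T3-L1 adipocytes, and Trib3 and P4ha2 lie below 0 in both.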

How the data were processed

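The authors deposited signal intensities of 71 Affymetrix 430A arrays from MAS 5.0, on a linear scale with a common scaling target (2% trimmed mean of 150.06 to 150.07 on the 12 arrays used). Of 22690 probe sets 64 controls were left out. By the platform annotation 20380 probe sets had 1 gene, 691 had several and 1555 had none. The 22 values of 0 were set to 0.1 before log2. A probe set was tested if at least 1 of the 4 group means was 19.9 or more, which is the presence level in the methods.

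Log2 signals of the 12 arrays were fitted with limma 3.58.1 in R 4.3.3 (lmFit, eBayes with an intensity trend), with 1 mean per time and the replicate number as a fixed block. P-values were adjusted by Benjamini-Hochberg over all 15722 probe sets. Changes are log2 fold changes ± standard error. The joint fit with 3T3-L1 used the number within the line as the block. The number of arrays, 3 per time, limits the precision. The median standard error was 0.17, and in simulated data the 7 hr comparison recovered 54% of probe sets with a true log2 change of -1, 94% of 2 and 10% of 0.5. The simulated set gave only 112 calls, against 2011 in the data, so its adjusted threshold was stricter. These shares therefore need not hold for the data.

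Each gene is given by its probe set of highest mean signal. Eligible for naming were the 12 largest rises and falls per comparison with adjusted p under 0.05, no overlap of groups and at least 1 present array on each side. So were up to 2 each way per gene list, up to 6 turning genes each way and up to 5 genes each way by the cell line difference. All tested immediate early, clock and marker genes and Pdk4 were eligible whatever their values. Not every eligible gene is given. The 50 gene lists (808 of 908 symbols matched) and the members were chosen with earlier results of these data known. Lists overlap and are described by counts with no list test. Alternatives were no block, no trend, a floor at 19.9, no filter, only the groups compared, all 18 DMSO arrays of the line, quantile normalization, the methods' analysis of variance on log10 signals, and leaving out each array. Promoters were the 250 bases before RefSeq starts on GRCm38.p6, and none on chromosome 18 was printed. Python 3.11.15 made the tables and matplotlib 3.10.9 the plots. RSG arrays were not used.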

Additional observations from a re-analysis of the deposited data

Results flagged for a closer look

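The change from 1 hr differed between C3H/10T1/2 and 3T3-L1 adipocytes, by the interaction term of the joint limma fit, for 13 probe sets by 2 hrs, 188 by 4 hrs and 549 by 7 hrs. The rule for named genes gave 5 with a negative difference at 7 hrs, Dusp6 (-3.26 ± 0.62, adjusted p = 0.00631), Cavin4 (-2.98 ± 0.76, adjusted p = 0.0344), Atf3 (-2.60 ± 0.65, adjusted p = 0.0305), Olr1 (-2.48 ± 0.58, adjusted p = 0.0222) and Noct (-2.47 ± 0.25, adjusted p = 1.06e-05). It gave 5 with a positive difference, Socs3 (3.73 ± 0.50, adjusted p = 0.000295), Tns2 (2.36 ± 0.49, adjusted p = 0.0102), Cnn2 (2.25 ± 0.21, adjusted p = 8.54e-06), Acta2 (2.25 ± 0.21, adjusted p = 8.54e-06) and Ctse (2.03 ± 0.48, adjusted p = 0.0224). For Dusp6 the 3T3-L1 signals were 2.2, 13.7 and 25 at 1 hr and 30.1, 32.6 and 27.9 at 7 hrs, so 2 of the 3 baseline values were below the presence level. Atf3 was near the presence level in 3T3-L1 adipocytes at both times, at 11.2, 34.1 and 22.8 and 20.4, 20.3 and 17.1. Cavin4 was below the presence level on 2 of the 3 C3H/10T1/2 arrays at 7 hrs (6.4, 28.5 and 9.1). The size of the difference and the place in the order are therefore uncertain for these 3 genes. With at most 3 arrays in a group, single arrays were not tested for standing apart.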

How the results depend on the processing

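Of 331 calls of genes named by the rule, none changed direction under any alternative run, and 325 passed with a floor at the presence level, 303 with quantile normalization, 295 with no filter, 261 with no trend and 254 without the replicate block. With all 18 DMSO arrays 307 of 321 passed, with only the groups compared 274 of 321, and when each array was left out 1661 of 2046. Depth is not defined for arrays, and signals near the presence level carry the least information.

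After group means were removed, arrays with the same number correlated above 0.1 in 17 of 18 pairs (0.04 to 0.31) and arrays with different numbers in 0 of 36 (-0.224 to 0.033), and all 12 arrays were closest to their own number. The labels do not state that a number marks a batch, so this is a hint from the data. Without the replicate block the probe sets called at 2, 4 and 7 hrs against 1 hr numbered 81, 576 and 1185, those from 2 to 4 hrs 52, those from 4 to 7 hrs 1, and those with a 7 hr change that differed between the lines 266. With no trend the counts were 101 at 2 hrs, 747 at 4 hrs, 23 from 2 to 4 hrs, 0 from 4 to 7 hrs (1820 had an unadjusted p below 0.05 in the limma fit) and 266 for the lines. With only the groups compared they were 551 at 4 hrs, 311 from 2 to 4 hrs and 20 from 4 to 7 hrs. The methods' test called 1133, 2415, 3100, 1404 and 1061 in the 5 comparisons, and 20, 334, 820, 3 and 0 after Benjamini-Hochberg. Leaving out each array gave 89 to 164 at 2 hrs, 589 to 937 at 4 hrs, 1329 to 1610 at 7 hrs, 44 to 187 from 2 to 4 hrs, 10 to 56 from 4 to 7 hrs and 291 to 475 for the lines. The count moved by over 1.5 times without these arrays. At 2 hrs these were 1 hr replicate 2 (112) and 2 hr replicates 1, 2 and 3 (89, 90 and 96). At 4 hrs they were 1 hr replicates 2 and 3 (685 and 658) and 4 hr replicates 2 and 3 (683 and 589), and at 7 hrs 1 hr replicate 2 (1338) and 7 hr replicate 3 (1329). From 2 to 4 hrs they were 2 hr replicates 1, 2 and 3 (85, 58 and 44) and 4 hr replicates 2 and 3 (81 and 60), and from 4 to 7 hrs 4 hr replicates 2 and 3 (23 and 12) and 7 hr replicates 1, 2 and 3 (17, 33 and 10). For the lines they were C3H/10T1/2 1 hr replicate 2 (336) and 7 hr replicate 3 (291) and 3T3-L1 7 hr replicate 1 (316). Among calls given in the report, those that lost the threshold when at least 1 array was left out, with the highest adjusted p, were at 2 hrs Atf3 (0.228, without 2 hr replicate 1), Castor2 (0.0701, 2 hr replicate 3), Csf1 (0.237, 2 hr replicate 1), Map3k1 (0.0732, 2 hr replicate 3), Myc (0.142, 2 hr replicate 1), Nr1d2 (0.0712, 2 hr replicate 3) and Txnip (0.078, 2 hr replicate 3). At 4 hrs they were Junb (0.0684, without 1 hr replicate 2), Jund (0.0709, 1 hr replicate 2), Klf4 (0.0519, 1 hr replicate 3) and Zfp36 (0.172, 4 hr replicate 2). At 7 hrs they were Cebpa (0.0558, 1 hr replicate 3), Esrra (0.143, 7 hr replicate 3), Rora (0.0557, 1 hr replicate 2) and Srebf1 (0.0727, 1 hr replicate 1). Quantile normalization gave 912 rises and 994 falls at 7 hrs. The causes were not tested.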

Other observations

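Il6 and Mmp3, chosen after their values were seen, separated the replicates more than the times. Il6, a cytokine, had signals of 188, 173 and 35.9 in replicates 1, 2 and 3 at 1 hr and 357, 254 and 76 at 4 hrs (0.86 ± 0.21, adjusted p = 0.0232, and adjusted p = 0.6 without the block). Mmp3, a matrix protease, gave 819.6, 1018 and 146 at 1 hr and 1208, 1067 and 183 at 7 hrs (0.32 ± 0.12, adjusted p = 0.0961). Replicate 3 was the lowest at all 4 times for both genes.

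Of 14 adipokine probe sets 1 was higher at 2 hrs (Metrnl), and at 4 as at 7 hrs 1 was higher (Angptl4) and 5 were lower (35.7%, against 3.08% and 5.43% over all). At 4 hrs 1 of the 5 falls was another probe set of Angptl4 (-2.42, adjusted p = 0.00204 by limma), so that gene has no direction there. Without the block 0 were called at 2 hrs, 3 were lower at 4 hrs, and 1 was higher and 2 lower at 7 hrs. Apln, the peptide apelin, was at 368, 250 and 367 at 1 hr and 204, 155 and 182 at 4 hrs (-0.85 ± 0.11, adjusted p = 0.000415). Nampt, an NAD-making enzyme that is also secreted, went from 1199, 887 and 1384 to 759, 629.7 and 669 at 7 hrs (-0.73 ± 0.15, adjusted p = 0.00436). Gclm, of glutathione synthesis, rose from 352, 369 and 459 at 1 hr to 660.4, 659 and 599.7 at 7 hrs (0.71 ± 0.13, adjusted p = 0.00206). Id1, a target of BMP signalling, rose from 90.6, 67.2 and 85.2 to 272, 187 and 190.4 (1.41 ± 0.23, adjusted p = 0.00125). Cirbp, the cold-inducible RNA-binding protein, was highest at 4 hrs, at 429, 462 and 530 after 216, 238 and 258 at 1 hr (0.99 ± 0.13, adjusted p = 0.000415).

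Other lists held calls as well. Of 19 probe sets of p53 targets 3, 4 and 6 were lower at 2, 4 and 7 hrs and 0 higher. The lower shares were 15.8%, 21.1% and 31.6%, against 0.572%, 3.08% and 5.43% over all. Without the block 0, 2 and 5 were lower. Phlda3, a repressor of Akt, went from 1064, 1081 and 1124 at 1 hr to 926, 733 and 756 at 7 hrs (-0.44 ± 0.11, adjusted p = 0.012), and Plk2, a polo-like kinase, from 217, 204 and 339 to 96.8, 111 and 93.8 (-1.30 ± 0.18, adjusted p = 0.000337). Of 36 probe sets of splicing factors and their kinases 7 were higher (19.4%) and 1 lower (2.78%) at 4 hrs, against 4.5% and 3.08% over all. Without the block 2 were higher and 0 lower at 4 hrs. By 7 hrs 3 were higher and 3 lower (8.33% each), near the 7.36% and 5.43% over all. Of 29 probe sets of the TGF-β response 7 were higher (24.1%) and 1 lower (3.45%) at 7 hrs, against 7.36% and 5.43% over all. Without the block 4 were higher and 1 lower. Tgfbr2, the type II receptor, rose from 656, 622 and 672 at 1 hr to 973, 1045 and 1024 at 7 hrs (0.64 ± 0.11, adjusted p = 0.00204), and Tgif1, a corepressor, gave -0.65 ± 0.12, adjusted p = 0.00221. Of 19 probe sets of the IGF axis 4 were higher (21.1%) and 1 lower (5.26%) at 7 hrs, against 7.36% and 5.43% over all. Without the block 2 were higher and 0 lower. Igf1, the growth factor, gave 202, 226 and 188 at 1 hr and 175, 119.6 and 82.4 at 7 hrs (-0.77 ± 0.18, adjusted p = 0.0106, and adjusted p = 0.0647 without the block).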
